A study of Mus musculus with 12 samples.

Results

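The genes described here are 10 named genes of the NF-κB pathway: the Rel family subunits Nfkb1, Nfkb2, Rela and Relb, the inhibitors and feedback regulators Nfkbia, Nfkbiz and Tnfaip3, and the target genes Birc3, Vcam1 and Icam1. They were chosen by name, with earlier results of these data known, and all 10 were found among the 54532 genes of the count table. Of these, 9 had enough reads to be tested, among 14424 genes tested in all, and Icam1 did not. RNA was sequenced from 12 cultures of ATDC5, a mouse cell line that the labels describe as WT cartilage progenitor cells. Exposure lasted 10 min, at 37 °C, 40 °C or 44 °C, and each temperature had 4 biological replicates. All were grown in the same high-sugar DMEM with serum at 37 °C beforehand, all come from 1 cell line, and the 37 °C cultures are the unheated comparison. How long after the 10 min RNA was taken is not stated in the sources used here.

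NF-κB is a family of dimeric transcription factors. In resting cells the dimers are held in the cytoplasm by inhibitors of the IκB type, and signals from cytokine and Toll-like receptors activate the IKK kinases, which mark the inhibitors for destruction and let the dimers reach the nucleus. Among the genes that NF-κB switches on are those of its own inhibitors, so that the response limits itself, and in chondrocytes the pathway is best known for inducing inflammatory mediators and matrix-degrading enzymes.

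Promoter sequence is shown for 3 of the genes, one for each way the genes of this group behaved: Nfkbia, the feedback inhibitor that fell at 44 °C, Nfkb2, a subunit gene that did not pass the test, and Icam1, which was almost unread. Each is the stretch of 250 bases before the transcription start in RefSeq (build GRCm38.p6), written 5′ to 3′ on the strand of the gene, at chr12:55492648-55492897 on the minus strand for Nfkbia, chr19:46304487-46304736 on the plus strand for Nfkb2 and chr9:21015690-21015939 on the plus strand for Icam1. The table lists 3 starts for Nfkb2, of which the one at the start of the deposited gene is shown, and its Icam1 start lies a little upstream of the deposited one.
Nfkbia: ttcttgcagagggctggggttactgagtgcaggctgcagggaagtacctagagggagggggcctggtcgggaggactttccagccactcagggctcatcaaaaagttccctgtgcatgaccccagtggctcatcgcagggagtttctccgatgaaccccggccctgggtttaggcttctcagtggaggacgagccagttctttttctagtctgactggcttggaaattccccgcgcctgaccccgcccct
Nfkb2: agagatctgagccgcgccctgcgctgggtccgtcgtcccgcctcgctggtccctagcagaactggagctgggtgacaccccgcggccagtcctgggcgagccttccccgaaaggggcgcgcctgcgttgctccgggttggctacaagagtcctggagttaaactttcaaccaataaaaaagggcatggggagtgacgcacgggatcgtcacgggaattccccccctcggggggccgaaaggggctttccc
Icam1: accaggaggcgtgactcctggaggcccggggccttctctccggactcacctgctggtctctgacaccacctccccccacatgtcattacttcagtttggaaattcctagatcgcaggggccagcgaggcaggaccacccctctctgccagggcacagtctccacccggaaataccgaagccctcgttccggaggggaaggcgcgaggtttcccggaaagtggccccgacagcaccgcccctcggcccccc
G and C made up 59.2% of the Nfkbia window, 64.8% of the Nfkb2 window and 65.2% of the Icam1 window. The RefSeq table held a start for 6 of the 10 genes, these 3 with Birc3, Rela and Tnfaip3. The sequences are given for reference, and no binding was measured.

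The libraries held 16269026 to 19506705 counts each. On library totals, 3 counts, the upper limit that a count of 0 allows, corresponded to 0.154 to 0.184 CPM, and this limit covers counting error only. Unless stated, CPM is the count scaled to the TMM-adjusted library size. The heating to 44 °C was visible in the heat shock genes: against 37 °C, Hspb1, Hspa1b and Hspa1a rose at 44 °C by 1.63, 1.12 and 2.57 on the log2 scale, although Hspa1a and Hspa1b are near-identical and their reads may have been divided between them. At 40 °C against 37 °C, 0 of these 3 were called. There, 2 log2 fold changes were positive and 1 negative (median 0.25), and 2 genes had all 40 °C libraries above those of 37 °C. Beside them, 3.83% of all genes had libraries that did not overlap in either direction, and 3 genes are too few to set against that share. Of the markers of cartilage cells, Sox9 averaged 54.2 CPM at 37 °C. Col2a1 averaged 1.21 and Acan 2.13 CPM, and Col9a1 was at 0 in every library, so these matrix genes were close to absent. Of the 10 chondrocyte markers listed, 7 had enough reads to be tested. The 10 summed to a mean of 77.5 CPM at 37 °C (on library totals), and the others are not given singly here. Libraries of 1 temperature also differed from each other along a common axis, described with the spread of the NF-κB genes further on.

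At 44 °C against 37 °C, Vcam1, Nfkbiz and Nfkbia fell and no tested NF-κB gene rose. Vcam1, an adhesion molecule that binds leukocyte integrins, fell by 47.7% in CPM, and the IκB family genes Nfkbiz and Nfkbia fell by 29.3% and 28.0%. Fold changes of the 4 Rel subunit genes were no larger than the −7.91% of Nfkb1, and none of them passed the test. The test was edgeR's quasi-likelihood test on the counts, with Benjamini-Hochberg adjustment of the p-values of the 14424 genes and a call at an adjusted p under 0.05. These 3 calls were 3 of 9 tested genes, beside 13.7% of all genes called in either direction, 7.11% called lower and 6.58% called higher. The genes were picked with earlier results of these data known, so this share is a description. Bulk counts cannot tell fewer cells of a kind from less RNA per cell.

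**Figure D1:**
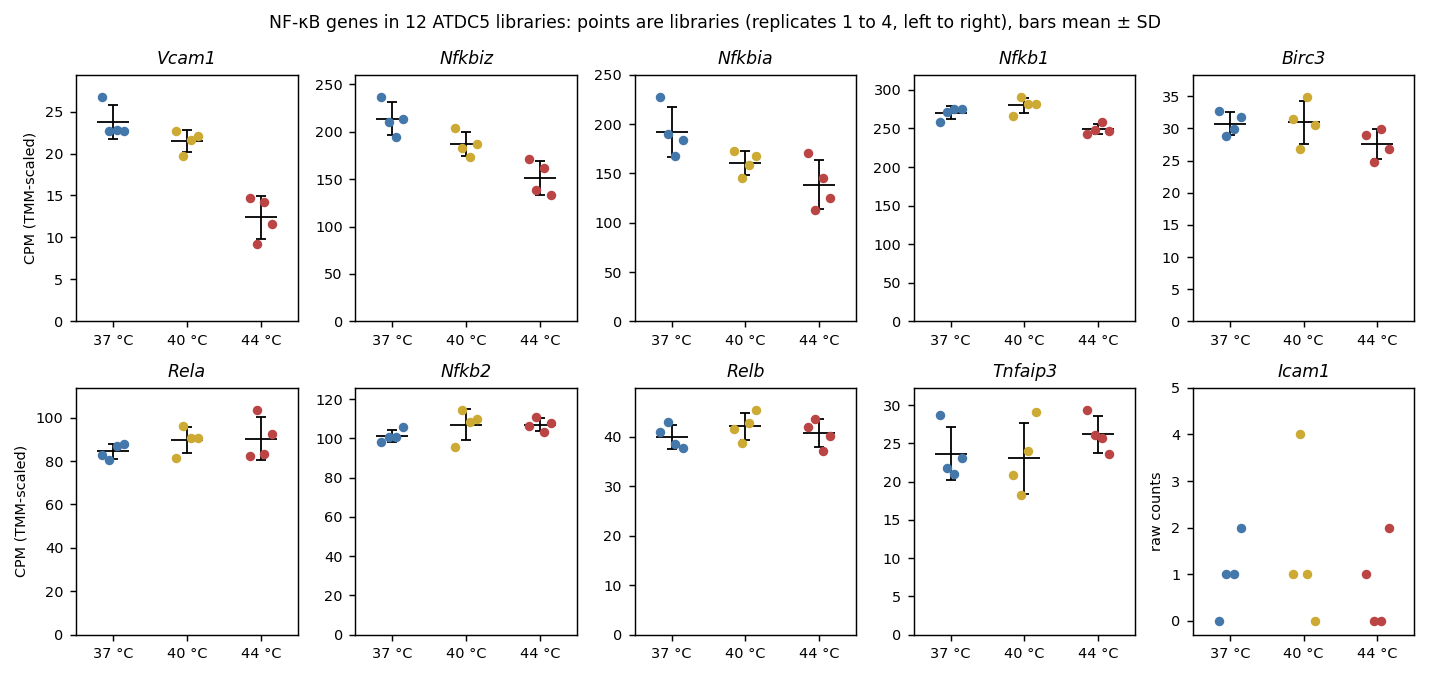
CPM (TMM-scaled, vertical axis from 0) of 9 NF-κB genes and raw counts of Icam1 in each library by temperature; points are libraries and bars the mean ± SD of 4. The 44 °C libraries of Vcam1 lie between 9.17 and 14.7 CPM, below all the others, while those of Rela, Nfkb2, Relb and Tnfaip3 overlap the libraries of both other temperatures.

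Vcam1 lies on chromosome 3 at 116109949 to 116129688 (mm10, minus strand). In replicates 1 to 4 it stood at 26.7, 22.6, 22.8 and 22.7 CPM at 37 °C, at 22.7, 19.7, 21.6 and 22.1 CPM at 40 °C, and at 14.7, 9.17, 14.2 and 11.5 CPM at 44 °C. Every 44 °C library was below every library of the other temperatures, and replicate 1 was the highest of its group at each of the 3 temperatures. The mean was 12.4 ± 2.56 CPM at 44 °C and 23.7 ± 2.01 CPM at 37 °C (SD, n = 4 each), a log2 fold change of −0.94 ± 0.125 (SE) and a change of −47.7% (95% interval −56.5% to −37.1%; edgeR adjusted p = 0.000452). Without replicate 1 of 37 °C, which stood apart from the other 3, the log2 fold change was −0.88 (edgeR adjusted p = 0.00191). The overlapping opposite-strand gene Gm43109 had 0 counts.

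Icam1, the other adhesion target, binds the integrins of leukocytes as well and lies on chromosome 9 at 21015985 to 21028817 (plus strand). It had 0, 1, 1 and 2 reads at 37 °C, 1, 4, 1 and 0 reads at 40 °C, and 1, 0, 0 and 2 reads at 44 °C. With 13 reads in all 12 libraries it was not detectable as different between temperatures at this depth, and part of those reads cannot be assigned with certainty because the opposite-strand gene Gm47079 overlaps it and had 4 reads.

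Nfkbiz encodes an atypical nuclear IκB protein that acts as a co-regulator of a subset of NF-κB targets such as Il6, and lies on chromosome 16 at 55811375 to 55838899 (minus strand). Its libraries held 236, 210.2, 194 and 213 CPM at 37 °C, 203, 183, 173 and 187 CPM at 40 °C, and 171, 139, 161 and 133 CPM at 44 °C. No 44 °C library reached the lowest 37 °C library, and the 40 °C libraries lay between and overlapped the 37 °C group. The log2 fold change of 44 °C over 37 °C was −0.50 ± 0.0832 (SE; 95% interval −0.68 to −0.32; edgeR adjusted p = 0.00183). Nfkbia encodes the classical inhibitor that traps NF-κB in the cytoplasm and is itself an early target, and lies on chromosome 12 at 55489410 to 55492647 (minus strand). It held 227, 189.7, 168 and 184 CPM at 37 °C, 173, 145, 158 and 168 CPM at 40 °C, and 170.3, 113, 145 and 126 CPM at 44 °C. The groups overlapped: replicate 1 was the highest library at each temperature, and at 44 °C it exceeded replicate 3 of 37 °C. Its log2 fold change was −0.47 ± 0.114 (SE; 95% interval −0.72 to −0.23; edgeR adjusted p = 0.015). Without replicate 1 of 37 °C the adjusted p was 0.0536, which ends this call, while Nfkbiz and Vcam1 kept theirs without each of the 12 libraries in turn.

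Tnfaip3, the third of the feedback regulators, encodes a ubiquitin-editing enzyme that shuts off signalling upstream of IKK and is a classical early target like Nfkbia. Its libraries held 29.3, 26.1, 25.6 and 23.6 CPM at 44 °C, against 28.6, 21.8, 21.0 and 23.0 CPM at 37 °C. The groups overlapped through replicate 1 of 37 °C, and the other 3 libraries of that temperature lay below every 44 °C library. The log2 fold change was 0.14 with an interval of the change from −9.18% to 34.6% (edgeR adjusted p = 0.49). Birc3, an inhibitor of apoptosis protein and ubiquitin ligase that is both a survival target and part of the receptor complex, averaged 27.6 ± 2.3 CPM at 44 °C and 30.7 ± 1.75 CPM at 37 °C (SD, n = 4 each). Its interval ran from −21.1% to 2.22% (edgeR adjusted p = 0.245).

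Among the subunit genes, Nfkb1, whose product is the precursor of the p50 subunit, held 258.2, 272, 276 and 276 CPM at 37 °C, 266, 291, 281 and 282 CPM at 40 °C, and 243, 248, 257.9 and 247 CPM at 44 °C. Every 44 °C library was below every 37 °C library, by little, and below every 40 °C library. Libraries that do not overlap, with 44 °C lower, were found for 3 of the 9 genes (Vcam1, Nfkbiz and Nfkb1) and for 9.13% of all genes. Against 37 °C the log2 fold change of Nfkb1 was −0.12 ± 0.045 (SE), a change of −7.91% (95% interval −13.8% to −1.57%), and it did not pass edgeR's test (adjusted p = 0.0901), whereas DESeq2 gave an adjusted p of 0.0453. A small gene on the same strand, Gm43430, overlaps Nfkb1 and had 138 reads in all against 55251.

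The other subunit genes did not pass the test. Rela, the subunit with the main activating domain, changed by 6.85% (95% interval −4.30% to 19.3%; edgeR adjusted p = 0.41). Nfkb2, the precursor gene of the alternative pathway, changed by 5.63% (−2.92% to 14.9%; edgeR adjusted p = 0.372), and Relb, its partner, by 1.80% (−8.44% to 13.2%; edgeR adjusted p = 0.842). These intervals hold increases and decreases but none as large as the decrease of Nfkbiz. The median log2 fold change of the 9 genes was −0.12, beside −0.000335 over all genes.

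**Figure D2:**
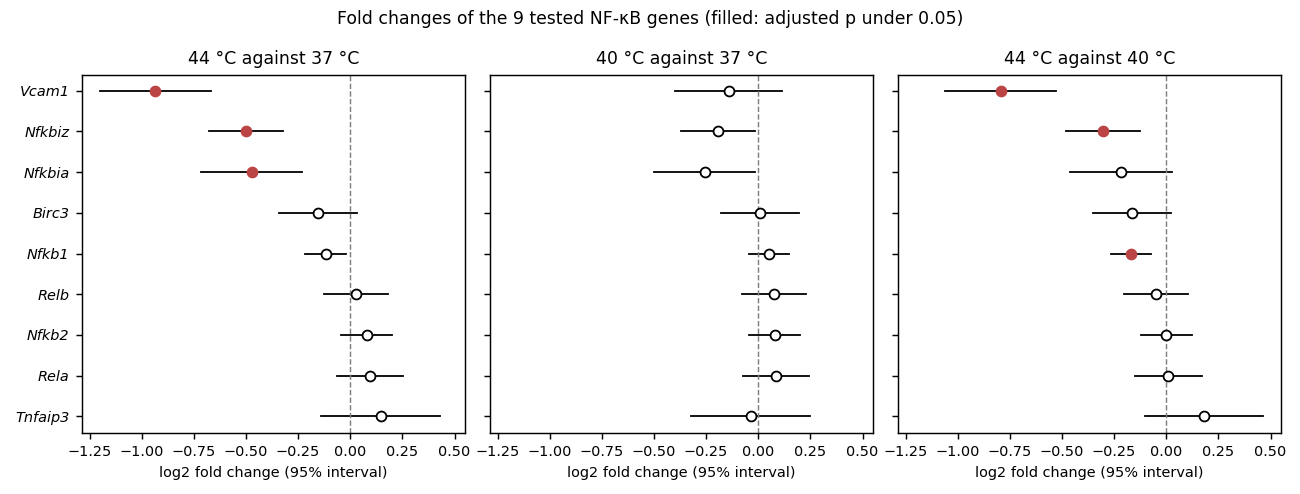
Log2 fold changes (points, horizontal axis) with 95% intervals (lines) of the 9 tested NF-κB genes in the 3 comparisons of temperatures; filled points have an adjusted p under 0.05. Vcam1, at −0.94 and −0.79, is the leftmost point in both comparisons with 44 °C, and no point is filled for 40 °C against 37 °C.

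At 40 °C against 37 °C, 0 of the 9 genes were called and none had libraries that did not overlap, beside 0% of all genes called by edgeR's quasi-likelihood test and 3.83% whose libraries did not overlap. At an unadjusted p under 0.05, which chance alone gives in about 0.05 of genes, that test held 749 of the 14424 tested genes. By adjusted p, DESeq2 called 4 genes. Nfkbia and Nfkbiz were the only NF-κB genes of the 9 under that unadjusted threshold, with log2 fold changes of −0.26 and −0.19, and edgeR adjusted p-values over the 9 genes ran from 0.823 to 0.985. Vcam1 stood at −0.14, Nfkb2 at 0.08, Rela at 0.09, Relb at 0.08, Nfkb1 at 0.05, Birc3 at 0.01 and Tnfaip3 at −0.04 on the log2 scale. The median of the 9 was 0.00934.

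At 44 °C against 40 °C, Vcam1, Nfkbiz and Nfkb1 fell, and each had libraries that did not overlap. These were 3 of 9 genes, beside 5.02% of all genes called in either direction, 3.14% called lower and 5.44% with 44 °C libraries all lower. The log2 fold changes were −0.79 ± 0.125 for Vcam1 (edgeR adjusted p = 0.00206), −0.31 ± 0.0832 for Nfkbiz (edgeR adjusted p = 0.0473) and −0.17 ± 0.045 for Nfkb1 (edgeR adjusted p = 0.0423). Of these 3, only Vcam1 kept its call without each of the 12 libraries. Nfkbiz lost it without replicates 2 and 4 of 37 °C, 1, 3 and 4 of 40 °C, and 2, 3 and 4 of 44 °C (adjusted p up to 0.15), and Nfkb1 lost it without each library except replicate 1 of 37 °C and replicate 1 of 40 °C (up to 0.1). Nfkbia, at −0.22, did not pass (edgeR adjusted p = 0.307), nor did Birc3 at −0.16 (0.311), Tnfaip3 at 0.18 (0.482), Relb at −0.05 (0.75) and Rela at 0.01 (0.959). Nfkb2 had the same level at both temperatures to within 0.01 on the log2 scale. This comparison shares its 44 °C libraries with that against 37 °C, so the 2 are not independent.

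In the joint test over the 3 temperatures, 3 of the 9 genes were called, beside 8.21% of all genes. They were Vcam1 (edgeR adjusted p = 0.000959), Nfkbiz (0.00521) and Nfkbia (0.0434). Nfkb1 had an adjusted p of 0.0617 and the other 5 lay between 0.352 and 0.747. Vcam1 and Nfkbiz passed without each library in turn, and Nfkbia in 3 of 12 such fits, those without replicate 3 of 37 °C, replicate 2 of 40 °C or replicate 1 of 44 °C, with adjusted p between 0.00506 and 0.122 over the 12.

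Levels between genes were compared per gene length as TPM (counts per base of gene, scaled to the same total in each library, from the deposited gene lengths). At 37 °C Nfkbia was highest at 373 ± 55.3 TPM, followed by Nfkbiz at 133 ± 13.1, Rela at 97.1 ± 3.90, Nfkb2 at 96.2 ± 2.77 and Nfkb1 at 70.0 ± 1.25 TPM (mean ± SD, n = 4). Relb averaged 32.2 ± 2.10, Birc3 19.2 ± 1.36, Tnfaip3 10.2 ± 1.67 and Vcam1 8.36 ± 0.842 TPM, and Icam1 was at 0.0426 TPM. Rela and Nfkb2 overlapped in range, as did Tnfaip3 and Vcam1, and the other neighbours in this order did not. Per gene length, Nfkbia and Nfkbiz were thus above every subunit gene at 37 °C. This order depends on the deposited lengths, which for Nfkb1 is 12061 bases. In CPM, Nfkb1 at 270 stood above Nfkbiz at 213 and Nfkbia at 192 at 37 °C. At 44 °C Nfkbiz, at 95.9 TPM, stood below Rela at 106 and Nfkb2 at 103 TPM in the mean, and overlapped both in range. Tnfaip3 at 11.5 TPM and Vcam1 at 4.46 TPM no longer overlapped at that temperature.

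**Figure D3:**
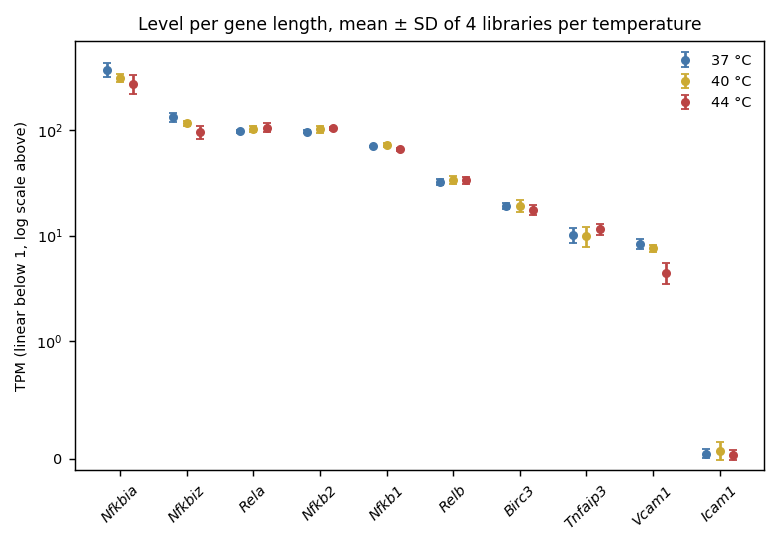
Level per gene length (TPM, vertical axis linear below 1 and logarithmic above) of the 10 NF-κB genes at 37, 40 and 44 °C, as the mean ± SD of 4 libraries, ordered by the 37 °C level. Nfkbia is at the top with 373 TPM and Icam1 at the bottom with 0.0426 TPM at 37 °C.

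Some of the NF-κB genes also varied along a common axis among libraries of the same temperature. The largest axis of such differences over the tested genes (the first principal component of deviations from the mean of each temperature, computed without the NF-κB genes, 29.7% of that variance) placed replicate 1 lowest at 37 °C and at 44 °C and replicate 4 lowest at 40 °C. As deviations from the mean of their temperature, Nfkbia (r = −0.916, permutation p = 0.000868, adjusted 0.0171; rho = −0.888, p = 0.00275), Vcam1 (r = −0.822, permutation p = 0.00347, adjusted 0.0307; rho = −0.923, p = 0.00521) and Tnfaip3 (r = −0.811, permutation p = 0.0013, adjusted 0.0171; rho = −0.783, p = 0.00398) ran against this axis over the 12 libraries. Tests were exact permutations within temperatures, two-sided, adjusted over the 45 relations of the 9 genes with each other and with the axis. These were 3 of 9 genes, beside 24.4% of all 14424 tested genes with an r at least as far from 0 as 0.811, so the share is not far from that of genes in general. Without the 2 libraries farthest out, r was −0.908, −0.791 and −0.744. The axis is built so that its mean is 0 at each temperature. When each library is instead placed on it without that condition, the 44 °C libraries averaged 0.440 ± 1.33 and the 37 °C libraries −0.453 ± 0.834 (SD over 4), a difference smaller than the SD of the 44 °C libraries and not tested. With that placement as a covariate, Vcam1, Nfkbiz and Nfkbia were still called lower at 44 °C against 37 °C, Nfkb1 fell and Tnfaip3 rose (0.29, edgeR adjusted p = 0.0224). These 5 of 9 genes stand beside 3149 of all 14424 tested genes called in that fit, and 1975 without the covariate. Over all alternatives run, the log2 fold change of Nfkbia ran from −0.59 to −0.34, beside −0.47 in the main fit. Because the placement comes from these same libraries and differed between temperatures in the mean, this fit does not test the part of the axis in these results. That part was not tested.

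Of the 36 pairs of tested NF-κB genes, 6 passed on Pearson's r in the same family of 45, of which 4 were positive and 2 negative, and Nfkb1 and Relb were in none. Beside them, 10.3% of all pairs of tested genes had an r at least as far from 0 as 0.721, the weakest of the 6. That share goes by r alone, with a limit set from these pairs, so it is not the same rule. By r alone Nfkbiz with Vcam1 (0.758) reached the limit too, but it did not pass (permutation p adjusted 0.104). Nfkbia deviated with Vcam1 (r = 0.900, permutation p = 0.000651, adjusted 0.0171; rho = 0.881, p = 0.00412; r = 0.865 without the 2 libraries farthest out) and with Nfkbiz (r = 0.882, permutation p = 0.00441, adjusted 0.0307; rho = 0.909, p = 0.0026; r = 0.778). Nfkb2 deviated with Rela (r = 0.753, permutation p = 0.00152, adjusted 0.0171; rho = 0.881, p = 0.000796; r = 0.706). Rela ran against Nfkbia (r = −0.805, permutation p = 0.00868, adjusted 0.0434; rho = −0.881, p = 0.0021; r = −0.871). Rela against Vcam1 and Birc3 with Vcam1 passed on r (−0.866 and 0.721, adjusted 0.0307 and 0.0399) but not on rho (adjusted 0.0675 and 0.063). At a fixed temperature, libraries high in the inhibitor Nfkbia were high in Nfkbiz and Vcam1 and low in Rela. The same genes also varied with the within-group axis. Its r was −0.916 for Nfkbia and −0.822 for Vcam1, which passed. For Nfkbiz it was −0.763 (permutation p adjusted 0.0942) and for Rela 0.693 (permutation p adjusted 0.129), which did not pass. How far these pairs reflect that axis, which many other genes share, was not tested.

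**Figure D4:**
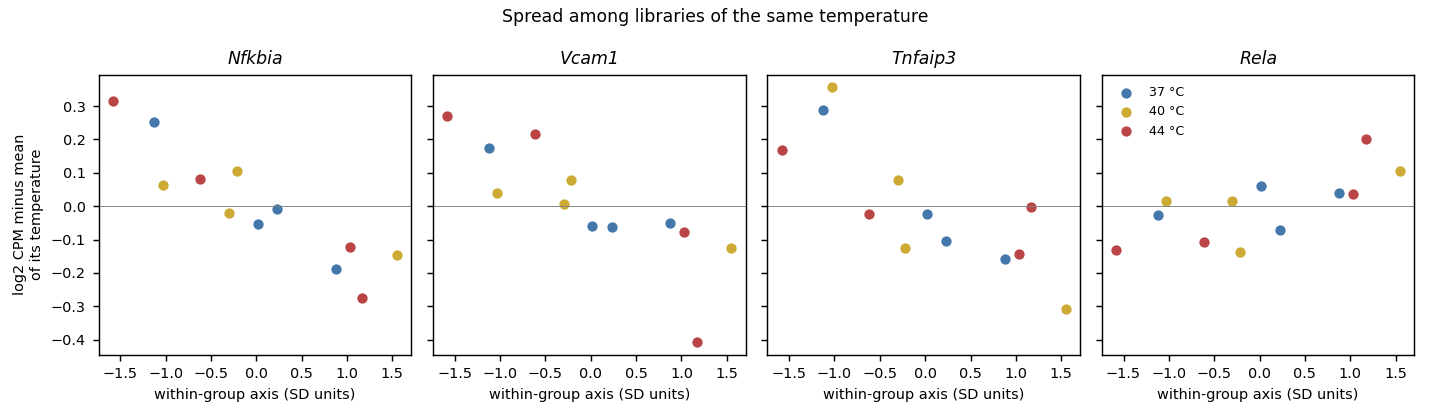
Deviation of log2 CPM from the mean of the same temperature (vertical axis) against the within-group axis (horizontal axis, SD units) for Nfkbia, Vcam1, Tnfaip3 and Rela; points are the 12 libraries, coloured by temperature. Nfkbia, Vcam1 and Tnfaip3 fall along the axis (r = −0.916, −0.822 and −0.811).

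By the mean pattern of the 9 genes over the 12 libraries (mean of z scores of log2 CPM), the most alike of 9930 other genes were the basement membrane collagen genes Col4a1 (r = 0.977) and Col4a2 (0.957), Lrpap1, a chaperone of lipoprotein receptors (0.967), Slc1a4, a neutral amino acid transporter (0.965), and Pck2, the mitochondrial PEP carboxykinase (0.951). This is a description, since the libraries share the temperatures and the axis above. Among the 9 genes, Vcam1 had the highest correlation with this mean (0.768), followed by Nfkbiz (0.679), Birc3 (0.663), Nfkbia (0.656) and Nfkb1 (0.638). Relb (0.381), Tnfaip3 (0.193), Nfkb2 (−0.0016) and Rela (−0.141) were lower, so the mean describes the first 5 better than the other 4.

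The rest of the pathway was read from lists of named genes, at 44 °C against 37 °C. Of 22 tested receptor and adaptor genes, 1 rose and 4 fell (22.7% called, beside 13.7% of all genes), with a median log2 fold change of −0.09. Tlr2, the Toll-like receptor for bacterial lipopeptides, averaged 14.0 ± 1.57 CPM at 44 °C and 22.4 ± 1.43 CPM at 37 °C (SD, n = 4 each; log2 fold change −0.67, edgeR adjusted p = 0.00255). Tlr4, the lipopolysaccharide receptor, fell by 0.43 (adjusted p = 0.0153), Irak4, a kinase below these receptors, by 0.27 (0.0344) and Tnfrsf1b, a TNF receptor, by 0.52 (0.0435) on the log2 scale. Tnfrsf12a, the TWEAK receptor, rose to 153 ± 31.7 CPM at 44 °C, against 107 ± 15.1 CPM at 37 °C (0.51, adjusted p = 0.0262). Only Tlr2 of these kept its call without each library in turn. Tlr4 lost it without replicate 2 of 37 °C (0.0535), Tnfrsf12a without replicates 1 and 4 of 37 °C and 2 and 4 of 44 °C (up to 0.0922), Irak4 without replicates 1, 2 and 4 of 37 °C and each replicate of 44 °C (up to 0.0986), and Tnfrsf1b without replicates 1, 2 and 4 of 37 °C, 1 and 3 of 40 °C, and 2 and 4 of 44 °C (up to 0.149).

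Of 13 IKK kinase and ubiquitin ligase genes, 1 fell and 0 rose (7.69% called, beside 13.7% of all genes), and the median was 0.00667. The one that fell was Ikbke, an IKK-related kinase of the antiviral branch (−0.54, edgeR adjusted p = 0.0141, and 0.0509 without replicate 1 of 37 °C). The kinase gene Chuk of the core complex stood at 0.15, its scaffold Ikbkg at −0.16, the ligase subunit Sharpin at −0.14 and Map3k14, the kinase of the alternative pathway, at 0.16, none past the test. Of 5 other Rel and IκB genes, 1 was called, too few genes to set beside the 13.7% of all genes. It was Bcl3, a nuclear IκB protein, which fell to 51.2 ± 5.67 CPM at 44 °C, against 64.5 ± 3.51 CPM at 37 °C (SD, n = 4 each; −0.33, edgeR adjusted p = 0.0255). Bcl3 lost its call without replicates 1 and 2 of 37 °C and 2 and 4 of 44 °C (up to 0.0748). Rel stood at 0.21, Nfkbie at −0.09, Nfkbid at 0.08 and Nfkbib at −0.0037, none past the test.

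Of 11 negative regulators, 2 fell and 0 rose (18.2% called, near the 13.7% of all genes; median 0.04). Zc3h12a, an RNase that degrades inflammatory transcripts, averaged 32.4 ± 6.04 CPM at 44 °C and 48.6 ± 5.87 CPM at 37 °C (SD, n = 4 each; −0.59, edgeR adjusted p = 0.009) and kept its call without each library. Tnip1, a partner of the Tnfaip3 product, fell by 0.26 (adjusted p = 0.017) but not without replicate 1 of 37 °C (0.0536) or replicate 2 of 44 °C (0.0577). Pdlim2 at −0.33, Commd1 at −0.26 and the deubiquitinase gene Cyld at 0.12 did not pass. Of 8 tested survival genes, 2 were called, beside 13.7% of all genes. Bcl2l1, which encodes an anti-apoptotic protein of the BCL2 family, fell by 0.19 (edgeR adjusted p = 0.0251) and Gadd45b, a stress response gene, rose by 0.44 (0.0447), with a median of −0.0061 over the list. Bcl2l1 lost its call without replicates 1 and 4 of 37 °C and 3 and 4 of 44 °C (up to 0.0804), and Gadd45b without each replicate of 37 °C and of 44 °C (up to 0.119). Cflar at 0.11, Traf1 at −0.15 and Sod2 at 0.08 did not pass.

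Of the inflammatory target genes, 21 of 24 were tested, 2 rose and 8 fell (47.6% called, beside 13.7% of all genes, 6.58% higher and 7.11% lower), with a median of −0.42. Il6, the interleukin, averaged 25.9 ± 6.27 CPM at 44 °C and 59.8 ± 7.88 CPM at 37 °C (SD, n = 4 each; −1.21 ± 0.17 SE, edgeR adjusted p = 0.000643). The chemokine genes Ccl2 (13.5 CPM at 44 °C and 26.5 CPM at 37 °C) and Cxcl5 (32.9 CPM at 44 °C and 56.2 CPM at 37 °C) fell with adjusted p of 0.000395 and 0.00155. Ptgs2, the inducible prostaglandin synthase, rose to 142 ± 13.2 CPM at 44 °C, against 83.9 ± 3.1 CPM at 37 °C (SD, n = 4 each; 0.75, edgeR adjusted p = 2.8e-05), and Mmp3, a matrix metalloproteinase, to 11.6 ± 1.6 CPM at 44 °C, against 6.86 ± 0.739 CPM at 37 °C (0.75, adjusted p = 0.00401). These 5 kept their calls without each library in turn. Targets therefore changed in both directions, with the chemokine and interleukin genes of these 5 lower and Ptgs2 and Mmp3 higher. Tnf, Il1b and Ccl20 had 27, 13 and 24 reads in all and were not tested.

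Of the other adhesion and integrin genes, 10 of 15 were tested, 3 fell and 0 rose, beside 7.11% of all genes called lower, with a median of −0.10. Itgb7, an integrin subunit whose dimer with the Itga4 product binds the Vcam1 product, averaged 31.7 ± 3.9 CPM at 44 °C and 51.9 ± 4.29 CPM at 37 °C (SD, n = 4 each; −0.71, edgeR adjusted p = 0.000632) and kept its call without each library, while Itga4 was among the genes with too few reads to test. Selp, a selectin, fell by 0.79 (edgeR adjusted p = 0.0286) and Ncam1, a neural adhesion molecule, by 0.36 (0.0454). Selp lost its call without replicates 1, 2 and 4 of 37 °C and 2, 3 and 4 of 44 °C (up to 0.0887), and Ncam1 without these same libraries and replicates 1 and 3 of 40 °C (up to 0.141). F11r at −0.22 and Mcam at 0.18 did not pass. At 40 °C against 37 °C, 0 genes were called in each of these 7 lists.

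**Figure D5:**
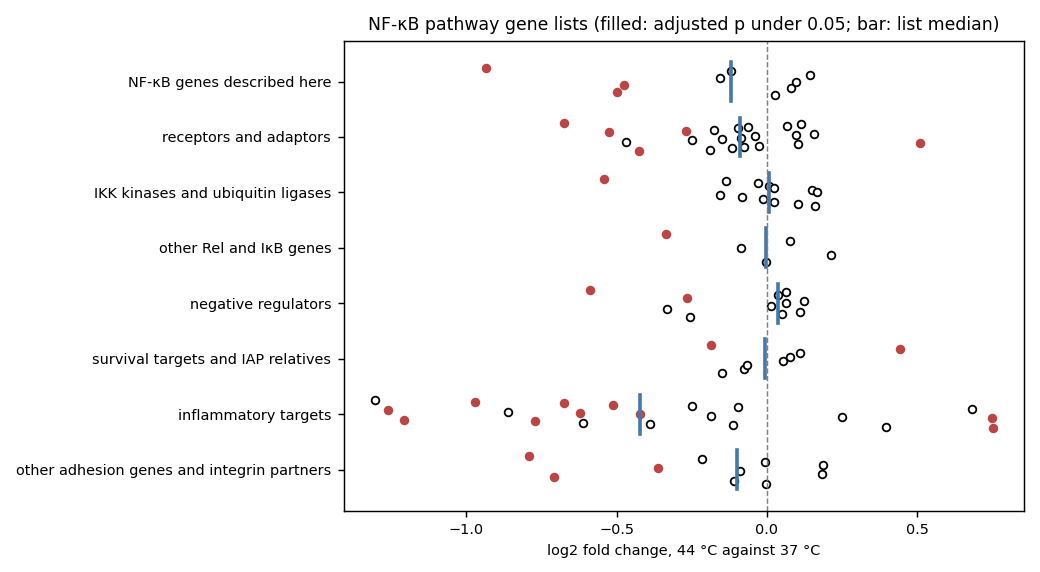
Log2 fold changes at 44 °C against 37 °C (horizontal axis) of the NF-κB genes and of the tested genes of 7 pathway lists (rows); each point is a gene, filled where the adjusted p is under 0.05, and the bar is the median of the list. The inflammatory targets have the lowest median, −0.42, with filled points on both sides of 0.

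Markers of other cell types are given beside the decrease of Vcam1, which several of these cell types can express, and their counts are to be read against the 13.7% of all genes called. The summed CPM (sums here are on library totals) of 10 macrophage and blood cell markers was 29.7 to 43.3 at 44 °C and 41.4 to 59.3 at 37 °C. Of these, 3 were tested: Mpeg1 (5.33 CPM at 37 °C) fell, while Cd68 (31.5 CPM) and Cd14 (11.2 CPM) were not called. At 37 °C the sum lay mostly in Cd68 and Cd14. Ptprc, Csf1r, Fcer1g and Lyz2 had 1, 8, 8 and 18 reads in all, and Adgre1, Tyrobp and Laptm5 were at 0 in every library. Of 8 endothelial markers, 4 were tested and 2 rose, with sums of 5.60 to 7.77 CPM at 44 °C and 4.31 to 4.82 CPM at 37 °C. Of 7 smooth muscle and perivascular markers, 3 were tested and 3 fell, with sums of 135 to 163 CPM at 44 °C and 204 to 232 CPM at 37 °C. Of 10 chondrocyte markers, 7 were tested and 1 fell (14.3%, close to that share), with overlapping sums of 48.4 to 89.6 CPM at 44 °C and 63.4 to 96.4 CPM at 37 °C. Of 8 mesenchymal progenitor markers, 6 were tested and 4 fell, Ly6a, Vim, Prrx1 and Twist1, with sums of 3642 to 4307 CPM at 44 °C and 4770 to 5409 CPM at 37 °C. Their part in the results for the NF-κB genes was not tested.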

How the data were processed

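Poly-A RNA of 12 ATDC5 cultures was sequenced, 4 per temperature. The values deposited by the authors are raw counts per gene. The tools named in the submitters' processing notes are featureCounts 1.5.0-p3, StringTie 1.3.3b, HISAT2 2.0.5 and fastp, and the build is mm10. Their roles, order, strand setting and treatment of reads that map to several places are not given in the sources used here, so reads of overlapping genes may be misassigned. Coordinates and gene lengths (in bases) are those of the deposited table, and lengths were used for TPM only.

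Counts were filtered with filterByExpr (minimum count 10, minimum total 15) and scaled by TMM, and edgeR 4.0.16 (R 4.3.3, limma 3.58.1) was fitted by quasi-likelihood to all 12 libraries with a mean for each temperature, with two-sided tests and Benjamini-Hochberg adjustment over 14424 genes. DESeq2 1.42.0 was an alternative. Permutations used scipy 1.17.1 and plots matplotlib 3.10.9. The fit was also run on simulated counts of independent genes with a fixed spread. These hold no within-group axis, so that check does not cover it. Correlations used log2 CPM with a prior count of 2. Within groups, a chi-square statistic per gene lay between 2.88 and 21.6 over 18 pairs of libraries, so none was a copy. Replicates are biological, per the series design text.

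Named were the 10 genes, the 5 genes of each pathway list with the smallest p at 44 °C against 37 °C, and the 5 genes most alike in pattern with at least 5 CPM. The genes and lists were chosen with earlier results of these data known.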

Additional observations from a re-analysis of the deposited data

Results flagged for a closer look

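In 3 of 159 groups of 4 libraries (53 genes at 3 temperatures), 1 library lay farther from the other 3 than the critical value of Dixon's test allows, which chance alone gives in about 1 in 20 groups. Vcam1 stood at 26.7 CPM in replicate 1 of 37 °C, with the other 3 at 22.6 to 22.8 CPM. Il6 stood at 59.2 CPM in replicate 1 of 40 °C, with the other 3 at 38.5 to 40.8 CPM. F11r, a junctional adhesion molecule, stood at 40.2 CPM in replicate 1 of 44 °C, with the other 3 at 34.8 to 35.3 CPM.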

How the results depend on the processing

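Vcam1 at 44 °C against both other temperatures and Nfkbiz at 44 °C against 37 °C kept their calls under each of the alternatives run. Counts over all genes depended on single libraries: at 44 °C against 37 °C the 1975 called genes became 979 to 3355 with 1 library left out (979, 1156 and 1063 without replicates 1, 2 and 4 of 37 °C, 3355, 980 and 1062 without replicates 1, 2 and 4 of 44 °C), 5034 when the within-group axis was a covariate, 3149 with its projected form and 630 at a threshold of 0.01. The axis was built from the same deviations that it then removes. At 40 °C against 37 °C the count of 0 became 13 with no filter, 4 with DESeq2, 596 with the axis, 11 with the projected axis, 1 without replicate 1 of 37 °C and of 44 °C together, and 0 to 1 with 1 library left out. At 44 °C against 40 °C the 724 became 1220 with DESeq2, 334 with the 2 groups alone, 3217 and 2536 with the axis and projected axis, 270 at 0.01, 1417 without both replicates 1, and 394 to 1265 with 1 library left out. In the joint test the 1184 became 1784 with no filter, 2065 with DESeq2, 4831 and 3012 with the axes, 425 at 0.01, and 562 to 2125. Scaling by library totals gave 396 higher and 355 lower genes at 44 °C against 40 °C, beside 271 and 453, and 1096 and 912 against 37 °C, beside 949 and 1026.

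Of the 9 tested NF-κB genes, 5 were called with the projected axis in each of 44 °C against 37 °C, 44 °C against 40 °C and the joint test. Beside them, 3149, 2536 and 3012 of all 14424 genes were called. With the axis at 40 °C against 37 °C, 2 were called (Nfkbia 0.00486 and Nfkbiz 0.0321), beside 596 of all genes. At 44 °C against 40 °C, 1 was called by library totals, with the 2 groups alone and at 0.01, beside 751, 334 and 270 of all genes. With 1 library left out, 1 to 3 were called there, beside 394 to 1265 of all genes. The other counts with 1 library left out were 2 to 3 at 44 °C against 37 °C (beside 979 to 3355 of all genes) and in the joint test (beside 562 to 2125). At 40 °C against 37 °C they were 0, beside 0 to 1 of all genes. The replicate block gave 3 NF-κB genes and 2557 genes at 44 °C against 37 °C, 0 and 0 at 40 °C against 37 °C, 3 and 901 at 44 °C against 40 °C, and 4 and 1656 in the joint test, where Nfkb1 passed (adjusted p = 0.0496). No label ties the numbers to a shared source and same-numbered libraries correlated at −0.207 to 0.366, so the numbers were not taken as pairs, although 6 of 12 libraries correlated best with one of their own number, a hint from the data and not from the design.

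Log2 fold changes that reversed sign were all of genes not called: Tnfaip3 at 40 °C against 37 °C (0.0325 with the projected axis, 0.0741 without both replicates 1, −0.166 to 0.0737 with 1 library left out), Birc3 there (−0.0101 with library totals, −0.0547 to 0.0701 with 1 library left out), Nfkb2 at 44 °C against 40 °C (−0.00512 with RLE factors, −0.00494 with no filter, −0.00511 with DESeq2, −0.00768 with the 2 groups alone, −0.0115 with the projected axis, −0.00379 without both replicates 1, −0.0516 to 0.0321 with 1 library left out), Rela there (−0.0235 with the projected axis, −0.0615 to 0.0516 with 1 library left out), and, at 44 °C against 37 °C, Relb (−0.00939 to 0.0665 with 1 library left out), Nfkbid (−0.212 to 0.391 with 1 library left out) and Nfkbib (−0.0359 to 0.058 with 1 library left out). The cause of these changes was not tested. At this depth and spread the intervals of Tnfaip3 and Birc3 are wide, and Icam1 cannot be compared.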
